A study of Mus musculus with 12 samples.

Results

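Nicotinic acetylcholine receptor subunit genes were followed along the cochlea of newborn mice. The 10 genes are Chrna9 and Chrna10, which encode the subunits of the efferent receptor of hair cells, Chrna3, Chrna5 and Chrnb4, which encode those of autonomic ganglia, and Chrna4, Chrna6, Chrna7, Chrnb2 and Chrnb3, which encode other neuronal subunits. They were taken by gene symbol from 19938 genes with 1 symbol on the array, and each had 1 entry there. Of the 10, 8 had a group mean over a log2 signal of 6 and were tested among 16306 genes, while Chrna5 and Chrna6 did not reach that level. The samples were pooled cochlear tissue of C57BL/6 mice at postnatal day 0 (P0) or postnatal day 8 (P8), cut into base, middle and apex. No transgene and no treatment is named for any group. Age and region made 6 groups of 2 arrays, 1 from each of 2 replicate sets of dissections, and the 3 regions of 1 age and set came from 1 pool of pups, so that the 12 arrays rest on 4 pools. Pieces held the organ of Corti with the spiral limbus and lateral wall, and in such mixed tissue fewer cells of a type and less RNA per cell cannot be told apart.

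Nicotinic receptors are pentamers of subunits around a cation channel that opens when acetylcholine binds. In the cochlea, efferent fibres from the brainstem release acetylcholine onto hair cells. The receptor built from the Chrna9 and Chrna10 products lets calcium in, the calcium opens the potassium channel encoded by Kcnn2, and the hair cell is inhibited. Chrna3 and Chrnb4 products form the main receptor of autonomic ganglia, in which the Chrna5 product can be an accessory subunit. Receptors of Chrna4 and Chrnb2 products are the most abundant high-affinity type of the brain, the Chrna7 product forms receptors by itself, and Chrna6 and Chrnb3 products occur together in a smaller set of neurons.

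In the mouse gene order of RefSeq (GRCm38.p6), Chrna5, Chrna3 and Chrnb4 are direct neighbours on chromosome 9, and Chrnb3 and Chrna6 are neighbours on chromosome 8. Chrna9 lies on chromosome 5 and Chrna10 on chromosome 7. RefSeq promoter entries were found for 8 of the 10 genes. The 250 bases upstream of the start of Chrna3 and Chrnb4, the pair whose signals moved together below, and of Chrna10 and Chrna9, the efferent pair, are printed here 5′ to 3′ on the strand of the gene. Capitals mark GGGCGG (the GC box, also as its complement CCGCCC) and CANNTG (the E-box, which reads the same on both strands, with overlapping matches counted).
Chrna3, chr9:55026563-55026812, minus strand: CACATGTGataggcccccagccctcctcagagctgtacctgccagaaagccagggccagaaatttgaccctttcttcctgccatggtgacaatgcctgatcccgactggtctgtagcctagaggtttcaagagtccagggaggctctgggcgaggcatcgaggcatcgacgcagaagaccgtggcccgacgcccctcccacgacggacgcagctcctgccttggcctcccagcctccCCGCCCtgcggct
Chrnb4, chr9:55048545-55048794, minus strand: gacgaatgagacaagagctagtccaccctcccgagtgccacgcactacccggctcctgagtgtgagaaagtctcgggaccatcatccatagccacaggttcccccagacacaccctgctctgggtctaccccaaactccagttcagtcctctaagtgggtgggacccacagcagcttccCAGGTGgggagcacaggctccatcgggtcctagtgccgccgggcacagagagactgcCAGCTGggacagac
Chrna10, chr7:102116714-102116963, minus strand: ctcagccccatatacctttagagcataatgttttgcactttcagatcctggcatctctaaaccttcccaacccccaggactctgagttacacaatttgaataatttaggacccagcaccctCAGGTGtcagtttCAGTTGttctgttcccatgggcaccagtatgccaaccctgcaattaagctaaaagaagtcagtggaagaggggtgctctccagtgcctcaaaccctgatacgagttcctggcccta
Chrna9, chr5:65966874-65967123, plus strand: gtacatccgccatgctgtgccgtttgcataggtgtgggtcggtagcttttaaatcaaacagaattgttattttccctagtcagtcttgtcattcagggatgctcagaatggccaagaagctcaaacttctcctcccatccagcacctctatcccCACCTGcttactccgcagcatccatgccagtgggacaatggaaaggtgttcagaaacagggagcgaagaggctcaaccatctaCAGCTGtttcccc
Each of the 4 windows held 2 CANNTG matches, those of Chrna3 overlapping in 1 run at its upstream end. GGGCGG was found once in the Chrna3 window and not in the other 3. Among 32851 mouse promoter windows of 250 bases, 66.2% held CANNTG and 32.7% held GGGCGG, so these matches are common. The GC content was 63.2% for Chrna3 and 61.2% for Chrnb4, against 48.0% for Chrna10 and 50.0% for Chrna9.

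The values are the authors' signals from robust multiarray averaging (RMA) on the log2 scale, on which a difference of 1 is a doubling. The median signal per array was 7.21 to 7.29 over all entries, which is no check of the arrays, since RMA normalizes them to each other. In a principal component analysis of the genes tested, component 2 (36.4% of the variance, against 42.5% for component 1) parted the replicate sets. Set 1 arrays lay at 18.7 to 32.5 on it and set 2 arrays at -26.3 to -23.8. The replicate SD, pooled over groups, had a median of 0.209 over the genes tested and a 90th percentile of 0.493. Levels of cell type markers are given as a description. A marker was tested only if a group mean lay above 6, so they do not check the tissue label. Of 10 hair cell markers 8 lay above 6 in all 6 groups, and the other 2, Ocm and Slc26a5, did so in 5 of 6. The markers tested for spiral ganglion neurons (9), Schwann cells (5), supporting cells (5) and macrophages (6) lay above 6 in every group. So did all 3 autonomic neuron markers tested and 6 of the 7 skeletal muscle markers tested, so these levels do not tell tissues apart. The mean of the 7 skeletal muscle markers tested was 8.02 on replicate 1 of the P0 apex and 6.70 to 7.20 on the other 11 arrays, and its part in the results was not tested. Signals of different genes come from different probes, so levels are compared only within a gene.

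**Figure D1:**
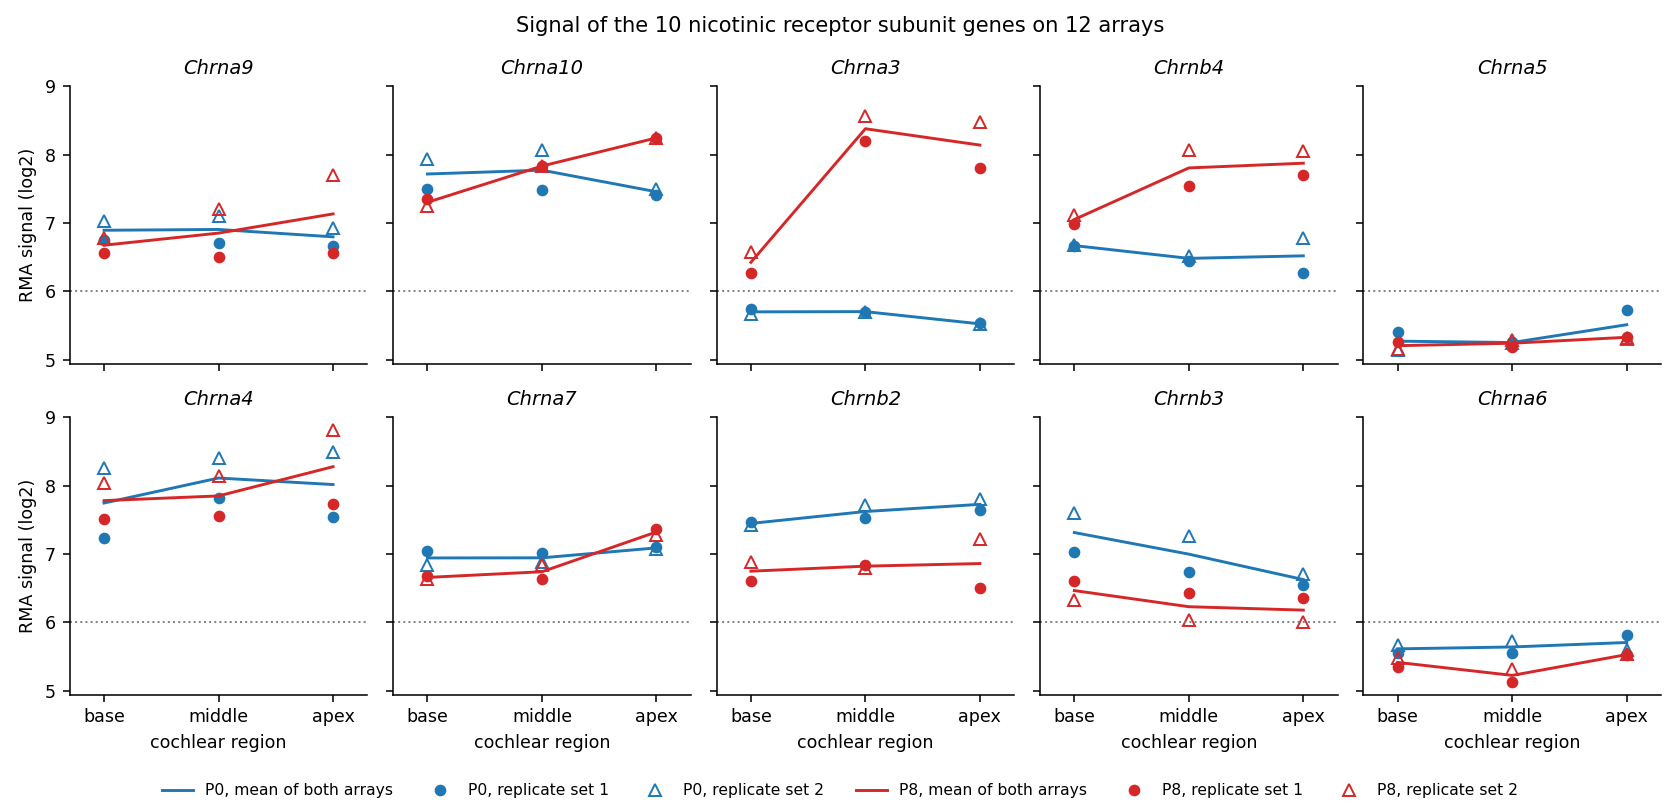
Log2 RMA signal of each subunit gene (y axis) in base, middle and apex (x axis), with circles for replicate set 1, open triangles for replicate set 2, lines through the mean of both arrays, blue for P0 and red for P8, and a dotted line at the level minimum of 6. Chrna3 lay under 6 on all 6 arrays at P0 and between 6.27 and 8.56 at P8, while Chrna5 and Chrna6 stayed under 6 on all 12 arrays.

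The ganglionic gene Chrna3 had the largest range of group means of the 10 genes, 2.85 on the log2 scale. At P0 the base read 5.74 and 5.66, the middle 5.70 and 5.71, and the apex 5.53 and 5.52 (replicates 1 and 2). At P8 the base read 6.27 and 6.58, the middle 8.20 and 8.56, and the apex 7.80 and 8.48. All 6 P8 arrays lay above all 6 P0 arrays, and at P8 the base lay below both other regions without overlap, while middle and apex overlapped. In group means the order was P8 middle (8.38 ± 0.26, SD, n = 2), P8 apex (8.14 ± 0.48), P8 base (6.42 ± 0.22) and then the 3 P0 groups (5.53 to 5.70). Differences were tested with limma over all 16306 genes with Benjamini-Hochberg adjustment, and a call needed both an adjusted p under 0.05 and a 1.5-fold difference (2-fold for P8 over P0 over the 3 regions). Chrna3 entered the test only through its P8 groups, since all 3 of its P0 means lay under the level minimum. Its P8 means are therefore set against that minimum. They lay above it 3.13-fold over the 3 regions, 5.19-fold in the middle and 4.40-fold in the apex. These folds leave out the spread between arrays and so are not lower limits of the rise. In the fit over arrays the 95% intervals of the P8-P0 difference in listed signals began at 3.26-fold, 4.46-fold and 4.27-fold. The difference of the signals as listed was 2.003 ± 0.13 on the log2 scale over the 3 regions (SE, limma adjusted p = 2.7e-05), with 1.76 within replicate set 1 and 2.24 within set 2, and with all 19938 genes tested and no level minimum the limma adjusted p was 2.4e-05. By region, the listed log2 difference was 2.67 ± 0.23 in the middle (limma adjusted p = 0.00062), 2.61 ± 0.23 in the apex (limma adjusted p = 0.00087) and 0.72 ± 0.23 in the base (limma adjusted p = 0.15). The rise over the 3 regions, in the middle and in the apex passed whichever of the 12 arrays was left out. The base passed only with the replicate set as a block (limma adjusted p = 0.016), a call lost without replicate 2 of the P0 base or either P8 base array (limma adjusted p up to 0.14).

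The spread behind the comparison of ages is between 4 pools, and the 3 regions of a pool are not independent. When the regions of each pool were averaged first, leaving 2 pools per age, the rise of Chrna3 was 2.003 ± 0.20 with a limma adjusted p of 0.070. In that fit 5 of 16306 genes (0.0307%) passed by limma and none of the 8 subunit genes did. The unadjusted p was 0.00031 for Chrna3, 0.0037 for Chrnb4, 0.0080 for Chrnb2 and 0.032 for Chrnb3.

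At P8 the signal of Chrna3 was 3.28-fold higher in the apex than in the base (1.71 ± 0.23, limma adjusted p = 0.035), with 1.53 within set 1 and 1.90 within set 2. That call was lost whichever of the 12 arrays was left out, and the difference was then 1.37 to 2.05 and the limma adjusted p was 0.052 to 0.34. With the replicate set as a block, which removes what the 6 arrays of a set share over both ages, the limma adjusted p was 0.00075 and the call stood without each of the 12 arrays in turn. With the pool as a block, which pairs the 3 regions of 1 pool, it was 5.2e-06. The middle was 3.87-fold above the base (1.95 ± 0.23), which did not pass without the block (limma adjusted p = 0.22) and did with it (limma adjusted p = 0.0037). The latter call was lost without either P8 base array, where the limma adjusted p reached 0.13. Apex and middle differed by -0.24 ± 0.23, with a 95% interval from -0.76 to 0.28, and did not pass in any fit. At P0, where all values lay under the level minimum, the apex-base difference was -0.18 ± 0.23 and is read no further.

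Chrnb4, the ganglionic partner and neighbour of Chrna3, also had its 3 P8 groups above its 3 P0 groups, over a smaller range of 1.39. At P0 the base read 6.66 and 6.68, the middle 6.45 and 6.51, and the apex 6.26 and 6.78. In P8 tissue the base read 6.99 and 7.11, the middle 7.55 and 8.06, and the apex 7.70 and 8.05. The P8 arrays again all lay above the P0 arrays, and the P8 base lay below the P8 middle and apex without overlap. Chrnb4 rose 2.03-fold over the 3 regions (1.02 ± 0.13, limma adjusted p = 0.00087), 2.50-fold in the middle (1.32 ± 0.22, limma adjusted p = 0.014) and 2.56-fold in the apex (1.35 ± 0.22, limma adjusted p = 0.011). In the base the difference was 0.38 ± 0.22 (limma adjusted p = 0.56). The fold over the 3 regions stood at its threshold of 2, and fell below it without replicate 1 of the P0 apex (0.93) or without replicate 2 of the P8 base (0.998), middle (0.93) or apex (0.96), with a limma adjusted p of at most 0.0042 over all 12. The call in the middle was lost without either P0 middle array (1.29 without replicate 1, 1.35 without replicate 2) or replicate 2 of the P8 middle (1.06). That in the apex was lost without replicate 1 of the P0 apex (1.097) or replicate 2 of the P8 apex (1.18). On pool means the difference was 1.02 ± 0.19 with a limma adjusted p of 0.14. The apex-base difference at P8 was 0.82 ± 0.22, 0.71 in set 1 and 0.94 in set 2, and it passed with the replicate set as a block (limma adjusted p = 0.019) and with the pool as a block (limma adjusted p = 0.0035) but not without a block (limma adjusted p = 0.44). The call with the replicate set as a block was lost without any of the 4 arrays of the P8 base and apex (0.74 to 0.91).

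Chrna5, the ganglionic gene between Psma4 and Chrna3, was listed at 5.14 to 5.73 at P0 and at 5.16 to 5.34 at P8. All of its arrays lay under the level minimum and the groups overlapped, so no order of levels is read from them.

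**Figure D2:**
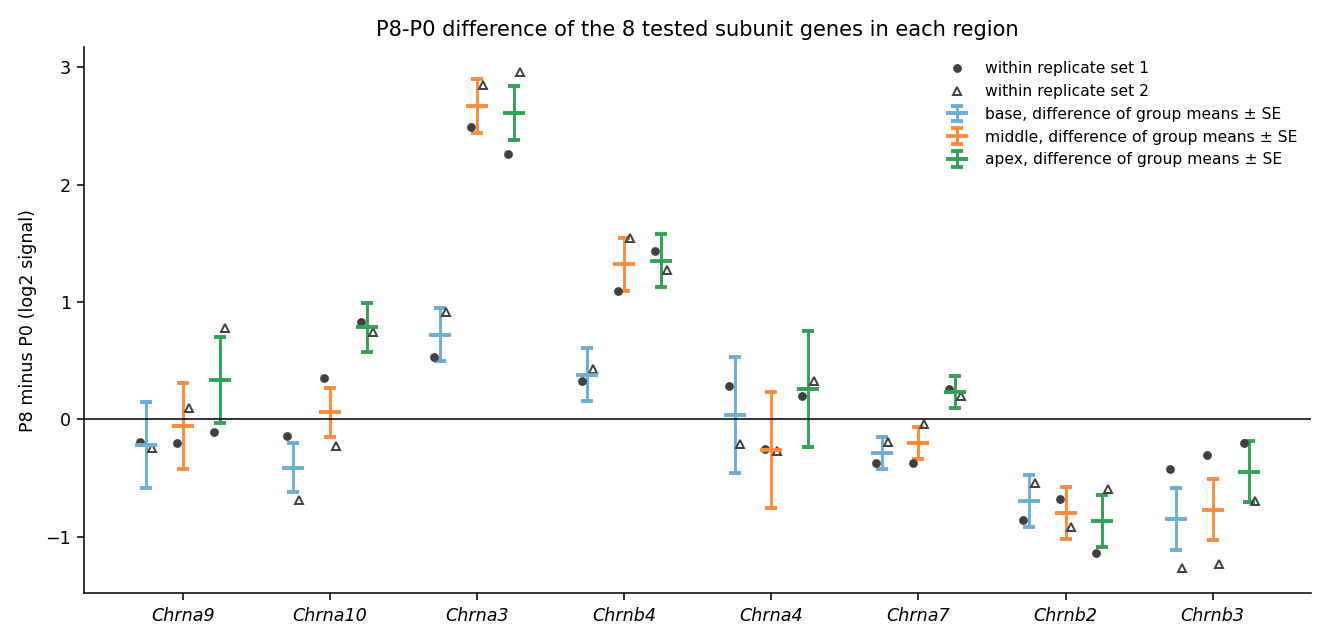
P8 minus P0 in log2 signal (y axis) for the 8 tested subunit genes (x axis), in the base (blue), middle (orange) and apex (green), with bars for the difference of group means ± SE (limma, n = 2 arrays per group) and points for each replicate set. Chrna3 and Chrnb4 rose in middle and apex by 2.61 to 2.67 and 1.32 to 1.35, and Chrnb2 lay below 0 in each region and set.

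No rise from P0 to P8 over the mean of the 3 regions passed for the efferent subunit genes. For Chrna10, the P0 base read 7.49 and 7.94, the middle 7.48 and 8.06, and the apex 7.41 and 7.50. The P8 base read 7.35 and 7.25, the middle 7.83 and 7.83, and the apex 8.24 and 8.25. The P8 apex arrays lay above the other 10 arrays, and at P8 the 3 regions were ordered base, middle, apex without overlap. Over the 3 regions, P8 differed from P0 by 0.14 ± 0.12 (95% interval -0.13 to 0.42). The apex was 1.73-fold higher at P8 than at P0 (0.79 ± 0.21, 0.83 in set 1 and 0.74 in set 2), which passed with the replicate set as a block (limma adjusted p = 0.0079) and not without it (limma adjusted p = 0.075). That blocked call was lost without replicate 1 of the P8 apex, where the limma adjusted p was 0.078. The base was 1.33-fold lower at P8 (-0.41 ± 0.21, limma adjusted p = 0.45). At P8 the apex was 1.92-fold above the base (0.94 ± 0.21), with 0.89 in set 1 and 0.99 in set 2. This passed with the replicate set as a block (limma adjusted p = 0.018) and not without it (limma adjusted p = 0.23), and the blocked call was lost without any of the 4 arrays of the P8 base and apex (0.78 to 1.102).

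Chrna9 gave a different picture in each replicate set. At P0 the base read 6.76 and 7.03, the middle 6.70 and 7.11, and the apex 6.67 and 6.93. At P8 the base read 6.56 and 6.79, the middle 6.50 and 7.20, and the apex 6.56 and 7.70. Replicate 2 was the higher array in all 6 groups, by 0.22 to 1.14, and groups next to each other in order of their means overlapped throughout. Its apex-base difference at P8 was -0.0025 in set 1 and 0.92 in set 2, together 0.46 ± 0.37 with a 95% interval from -0.38 to 1.29. P8 over P0 over the 3 regions was 0.02 ± 0.21 (95% interval -0.46 to 0.50), in folds 0.727 to 1.42. With all 12 arrays Chrna9 passed in none of the 9 comparisons, with or without a block.

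**Figure D3:**
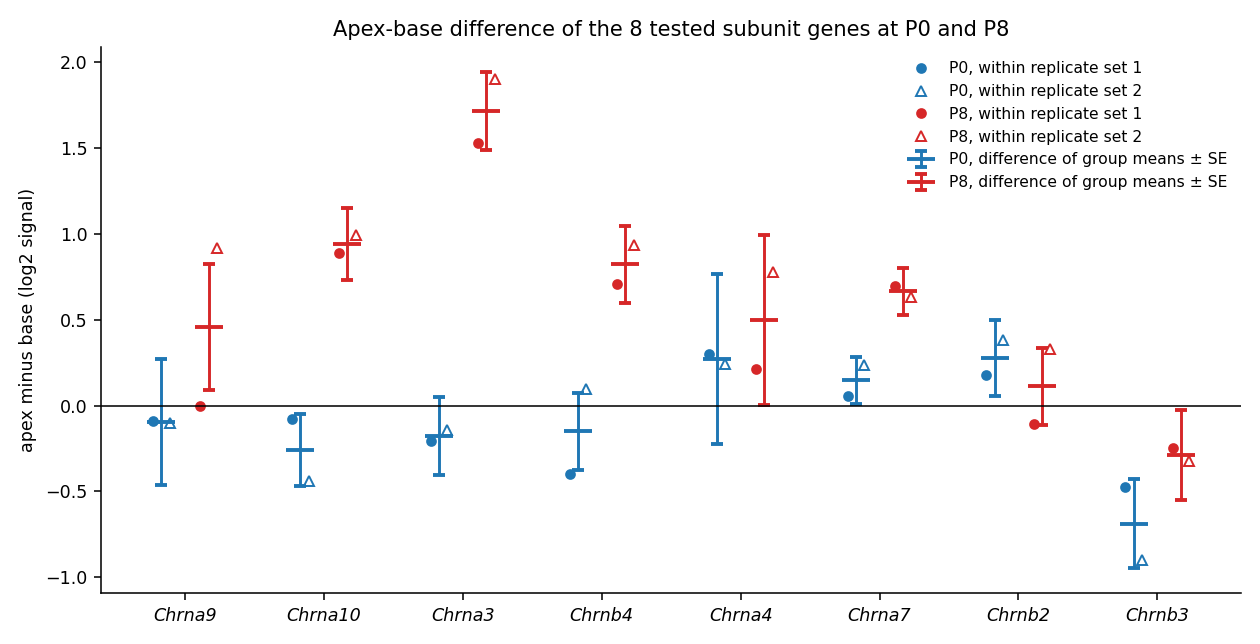
Apex minus base in log2 signal (y axis) for the 8 tested subunit genes (x axis) at P0 (blue) and P8 (red), with bars for the difference of group means ± SE (limma, n = 2 arrays per group), circles for replicate set 1 and open triangles for set 2. At P8 Chrna3, Chrna10, Chrnb4 and Chrna7 lay at 0.63 or above in both sets, and Chrnb3 was the only gene below 0 in both sets at both ages.

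The apex-base difference of these genes was set against itself between ages. For Chrna3 the listed signals gave -0.18 at P0 and 1.71 at P8, a change of 1.89 ± 0.32 (1.73 in set 1, 2.05 in set 2). All its P0 signals lay under the level minimum, so for this gene the change is one of listed signals, and its size as a change of expression is not known. For Chrna10 it went from -0.26 to 0.94, a change of 1.20 ± 0.30 (0.97 in set 1, 1.43 in set 2), and for Chrnb4 from -0.15 to 0.82, a change of 0.97 ± 0.32 (1.11 in set 1, 0.84 in set 2). Without a block 0 of 16306 genes (0%) passed by limma, and 4 of the 8 subunit genes, these 3 and Chrna7, had an unadjusted p under 0.05 against 2.04% of all genes. With the replicate set as a block 29 genes (0.178%) passed, among them Chrna3 (limma adjusted p = 0.022). The latter call was lost without 7 of the 12 arrays: both P0 base, both P0 apex and both P8 base arrays, and replicate 2 of the P8 apex (1.61 to 2.17, limma adjusted p up to 0.17 over all 12). With the pool as a block 151 genes (0.926%) passed, among them Chrna3 (limma adjusted p = 0.00026), Chrna10 (limma adjusted p = 0.0048) and Chrnb4 (limma adjusted p = 0.033). For Chrna9 the change was 0.55 ± 0.52 (0.09 in set 1, 1.02 in set 2).

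Among the other neuronal subunits, Chrnb2 was lower at P8 than at P0. At P0 the base read 7.47 and 7.43, the middle 7.52 and 7.72, and the apex 7.64 and 7.81. In P8 tissue the base read 6.61 and 6.89, the middle 6.84 and 6.80, and the apex 6.50 and 7.22. Each of the 6 P8 arrays lay below all 6 P0 arrays. Over the 3 regions the signal was 1.73-fold lower (-0.79 ± 0.13, limma adjusted p = 0.0031), which is under the 2-fold threshold and is not counted as a call. By region the base differed by -0.70, the middle by -0.80 and the apex by -0.86 (each ± 0.22), and all 3 passed with the replicate set as a block (limma adjusted p = 0.016, 0.0080 and 0.0047) and none without. The blocked calls were lost without replicate 1 of the P0 base or either P8 base array for the base (limma adjusted p up to 0.17), without replicate 1 of the P0 middle or replicate 2 of the P8 middle for the middle (up to 0.066), and without replicate 1 of the P8 apex for the apex (0.060). No apex-base difference of Chrnb2 passed at either age.

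Chrnb3 had its highest signal in the P0 base. At P0 the base read 7.02 and 7.60, the middle 6.73 and 7.26, and the apex 6.55 and 6.70. The P8 base read 6.600 and 6.33, the middle 6.43 and 6.03, and the apex 6.35 and 6.01. Neighbouring groups overlapped except the P0 middle and apex. The apex lay below the base at P0 in both sets (-0.48 and -0.90, together -0.69 ± 0.26), a 1.61-fold difference that passed only with the pool as a block (limma adjusted p = 0.0086). Over the 3 regions P8 was 1.61-fold lower than P0 (-0.69 ± 0.15, limma adjusted p = 0.014), under the 2-fold threshold, with -0.31 in set 1 and -1.07 in set 2. With the replicate set as a block it was lower at P8 in the base (limma adjusted p = 0.033) and in the middle (limma adjusted p = 0.047), but not in the apex (limma adjusted p = 0.20). The call in the base was lost without replicate 2 of the P0 base or either P8 base array (-1.17 to -0.53 over all 12). That in the middle was lost without replicate 2 of the P0 middle or of the P8 middle, either P0 apex array or either P8 base array (-1.06 to -0.48 over all 12).

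Chrna7 had its highest signal in the P8 apex. Its P8 base read 6.68 and 6.64, the middle 6.64 and 6.84, and the apex 7.37 and 7.28, against 6.84 to 7.11 over the 6 P0 arrays. The P8 apex lay above every other array of the gene, and P8 base and middle overlapped. The apex-base difference at P8 was 0.66 ± 0.14 (1.58-fold, 0.69 in set 1 and 0.63 in set 2), which passed with the replicate set as a block (limma adjusted p = 0.021) and not without it (limma adjusted p = 0.18). The blocked call was lost without any of the 4 arrays of the P8 base and apex (0.64 to 0.69). Chrna4 read 7.24 to 8.49 at P0 and 7.52 to 8.82 at P8, replicate 2 was higher in all 6 groups by 0.52 to 1.09, and P8 differed from P0 by 0.01 ± 0.29 over the 3 regions (95% interval -0.64 to 0.66). Chrna6 was listed at 5.55 to 5.82 at P0 and 5.13 to 5.53 at P8, under the level minimum on all arrays.

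The counts below are over the 8 tested subunit genes. Chrna3 is one of them only through its P8 groups, so its calls for P8 over P0 are listed and not read as support, while the other 7 had all 6 group means over 6. In all, 1 of 8 passed for the apex over the base at P8 (Chrna3) against 0.196% of all genes tested, and 4 of 8 with the replicate set as a block (Chrna3, Chrna10, Chrnb4 and Chrna7) against 1.58%. With the pool as a block the same 4 passed, against 2.81%. For P8 over P0 over the 3 regions 2 of 8 passed (Chrna3 and Chrnb4) against 3.2% of all genes, and the same 2 with the block against 3.43%. In the middle and in the apex 2 of 8 passed, Chrna3 and Chrnb4, against 4.02% and 4.53%. With the block 4 of 8 passed in the middle (Chrna3 and Chrnb4 higher, Chrnb2 and Chrnb3 lower) against 11.1%, and 4 of 8 in the apex (Chrna3, Chrnb4 and Chrna10 higher, Chrnb2 lower) against 12%. In the base 0 of 8 passed by limma against 3.82%, 3 had an unadjusted p under 0.05 with a 1.5-fold difference against 8.82%, and 3 of 8 passed with the block against 10.5%. For the apex over the base at P0 0 of 8 passed by limma against 0.00613%, with 1 at an unadjusted p under 0.05 (Chrnb3) against 1.15%, 0 with the replicate set as a block (0.675%) and 1 with the pool as a block (1.42%). For the middle over the base at P8 0 of 8 passed by limma against 0%, with 2 at an unadjusted p under 0.05 (Chrna3 and Chrnb4) against 0.583%, 1 with the replicate set as a block against 0.117% and 2 with the pool as a block against 0.54%. For the apex over the middle at P8 0 of 8 passed against 0%, also at an unadjusted p (0.313%), with the replicate set as a block (0.0123%) and with the pool as a block (0.215%). The P8 and P0 arrays did not overlap for 3 of 8 genes, Chrna3 and Chrnb4 above and Chrnb2 below, against 15.5% of all genes tested. At P8 7 of the 8 differences between apex and base were above 0, with a median of 0.58, against 8247 of 16306 genes and a median of 0.00 over all genes.

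Applied per gene to the same values, the methods' t-test (unpaired) gave 4 of 8 for the apex over the base at P8 at an unadjusted p under 0.05 with a 1.5-fold difference (0.951% of all genes) and 0 after Benjamini-Hochberg adjustment (0%). For P8 over P0 over the 3 regions it gave the same count of 2 before and after adjustment (3.41% and 3.24% of all genes).

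The other genes of cholinergic transmission were described from lists of the same pathway. Of 6 further subunit genes (Chrna1, Chrna2, Chrnb1, Chrnd, Chrne and Chrng, the muscle-type subunits with Chrna2), 5 were tested, and none passed for the apex over the base at P8 or for P8 over P0 over the 3 regions, where 3 of the 5 lay above 0. Over all genes tested, 8117 of 16306 lay above 0 in the latter comparison, 2.06% passed higher and 1.14% lower. Chrng, the fetal muscle subunit, was 1.45-fold lower at P8 over the 3 regions (-0.54 ± 0.10, limma adjusted p = 0.0051) and fell in the apex (-0.78 ± 0.17, limma adjusted p = 0.033), the group in which replicate 1 carried the raised muscle markers at P0. Chrna1, the muscle alpha subunit, had 0.49 ± 0.30 for the apex over the base at P8. Of 7 genes for acetylcholine synthesis, transport and breakdown 6 were tested, of which 4 lay below 0 over the 3 regions (list median -0.17) and 1 fell. It was Slc5a7, the choline transporter of cholinergic terminals, at -1.48 ± 0.09 (2.78-fold lower, limma adjusted p = 1.9e-05). Ache, acetylcholinesterase, was 1.44-fold lower (-0.53 ± 0.08, limma adjusted p = 0.0016), which is under the 2-fold threshold.

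Of 3 channel genes of hair cells, all lay above 0 for P8 over P0 over the 3 regions, with a median of 0.68. Kcnma1, the BK potassium channel, rose by 1.101 ± 0.12 (limma adjusted p = 0.00045). Kcnn2, the SK channel coupled to the efferent receptor, was 1.60-fold higher (0.68 ± 0.11, limma adjusted p = 0.0032) and passed in the apex (0.92 ± 0.19, limma adjusted p = 0.031). Cacna1d, the hair cell calcium channel, was 1.46-fold higher (0.54 ± 0.11, limma adjusted p = 0.0085). Over the 3 regions Kcnn2 and Cacna1d were both under the 2-fold threshold. None of the 3 passed for the apex over the base at P8, where Kcnma1 lay at -0.61 ± 0.21 and Kcnn2 at 0.28 ± 0.19. Of 12 genes of receptor assembly, clustering and modulation 6 lay above and 6 below 0 over the 3 regions (list median -0.02), and 1 fell, Lypd6b, a Ly6-family protein, at -1.14 ± 0.09 (limma adjusted p = 8.9e-05, named after its value was seen). Lynx1, a membrane-bound inhibitor of nicotinic receptors, was 1.74-fold higher at P8 (0.80 ± 0.11, limma adjusted p = 0.0011), and Lrp4, the agrin receptor, was 1.63-fold lower (-0.71 ± 0.08, limma adjusted p = 0.00036), both under the 2-fold threshold. All 5 muscarinic receptor genes were tested and none passed in these comparisons, with all 5 above 0 and a median of 0.14 over the 3 regions.

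Likeness between genes was measured by Pearson's r over the 12 arrays after the mean of each replicate set was subtracted. It is a description, since the arrays share 4 pools and fall into 2 ages, so that a gene with any difference between ages gains r with others of the same kind. The gene most like Chrna3 among 16305 others was Chrnb4 (r = 0.974), followed by Plscr4 (0.970) and Otud3 (0.969). Those most like Chrnb4 were Car7, a carbonic anhydrase (0.977), Chrna3, and Vipr1, a receptor of vasoactive intestinal peptide (0.970). Within the 6 P8 arrays r between Chrna3 and Chrnb4 was 0.960, and within the 6 P0 arrays, where Chrna3 lay under the level minimum, it was 0.245. Those most like Chrna10 were Ptprq, a phosphatase of hair bundles (0.962), Loxhd1, a stereocilia protein (0.944), and Mtmr11 (0.944). Those most like Chrna9 were Acbd7 (0.909), Rnf182 (0.846) and Trim13 (0.792). The efferent pair Chrna9 and Chrna10 had r = 0.480 with each other, at rank 360 for Chrna9, and Chrna3 had r = 0.544 with Chrna10. For Chrnb2 the leading genes were Dbn1, a neuronal actin-binding protein (0.985), Slitrk5 (0.978) and Sez6l2 (0.975), for Chrnb3 Ttll6 (0.953), Mybl1 (0.945) and Lyve1 (0.943), for Chrna7 Hs3st3b1 (0.933), Sall4 (0.910) and Ackr4 (0.899), and for Chrna4 Sh3gl3 (0.873), Hpgds (0.853) and Pdgfb (0.842).

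**Figure D4:**
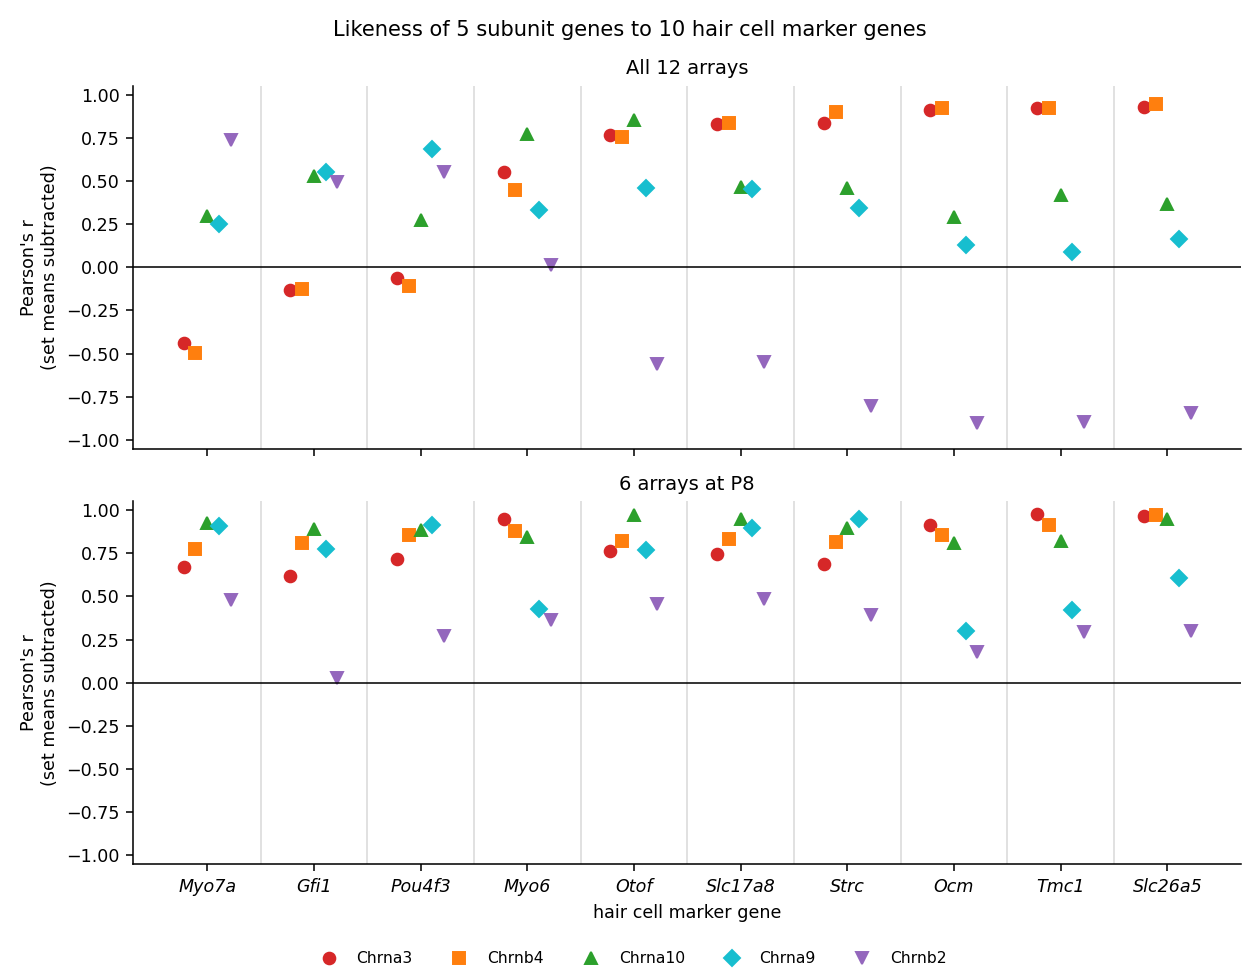
Pearson's r, with the means of the replicate sets subtracted (y axis), between 5 subunit genes (marker shapes) and 10 hair cell marker genes (x axis), over all 12 arrays (top) and over the 6 arrays at P8 (bottom). Over 12 arrays Chrna3 had r from -0.44 with Myo7a to 0.93 with Slc26a5, whereas at P8 it had a positive r with all 10 genes (0.62 to 0.98). Chrna3 lay under the level minimum on the P0 arrays, so its r over 12 arrays is listed and not read.

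The markers of the cells in the tissue were set beside these genes. The mean of the 10 hair cell markers was 7.45 to 7.57 on the P0 arrays. At P8 it was 8.10 and 8.19 (base), 8.48 and 8.61 (middle) and 8.62 and 8.79 (apex). For P8 over P0 in the base 5 of the 10 markers lay above 0 and 5 below (list median 0.05). The P8 group means of Chrnb4 also lay in the order base, middle, apex, as did those of Chrna4, Chrna7, Chrna9, Chrna10 and Chrnb2. For Chrnb4 the middle and apex arrays overlapped (apex minus middle 0.07, 95% interval -0.44 to 0.58), and Chrna3 had its highest mean in the middle. Within the hair cell list r with Chrna3 over 12 arrays was above 0 for 7 of 10 genes. Chrna3 lay under the level minimum on all P0 arrays, so its r over 12 arrays holds the step between ages. Such r, here and in the medians below, are listed and not read as likeness to a cell type. These were Slc26a5, which encodes prestin (0.930), Tmc1, a transduction channel gene (0.923), Ocm, which encodes oncomodulin (0.911), Strc (0.835), Slc17a8, the glutamate transporter of inner hair cells (0.830), Otof (0.768) and Myo6 (0.551). The other 3 were Pou4f3 (-0.063), Gfi1 (-0.133) and Myo7a (-0.440). For Chrna10 r lay between 0.273 and 0.853 over the 10 genes. The other lists had such values too, and over 12 arrays the median r with Chrna3 was 0.799 for hair cells, 0.707 for macrophages (0.488 to 0.805) and 0.685 for Schwann cells (-0.384 to 0.875), against -0.368 for supporting cells and -0.636 for spiral ganglion neurons. Within the 6 P8 arrays the median r with hair cell, Schwann cell and supporting cell markers was 0.754, 0.815 and 0.750 for Chrna3, and 0.845, 0.785 and 0.846 for Chrnb4. For Chrna10 these medians were 0.893, 0.858 and 0.953, and for Chrnb3 -0.861, -0.780 and -0.880. Within the 6 P0 arrays the same medians were 0.010, 0.553 and -0.355 for Chrna10 and -0.330, -0.391 and -0.588 for Chrnb4. For Chrnb3 they were -0.321, 0.520 and -0.804 at P0, so the likeness seen at P8 did not hold in general at P0. Chrna3 lay under the level minimum at P0, so its medians there are not read. These values do not tell the cell types apart.

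**Figure D5:**
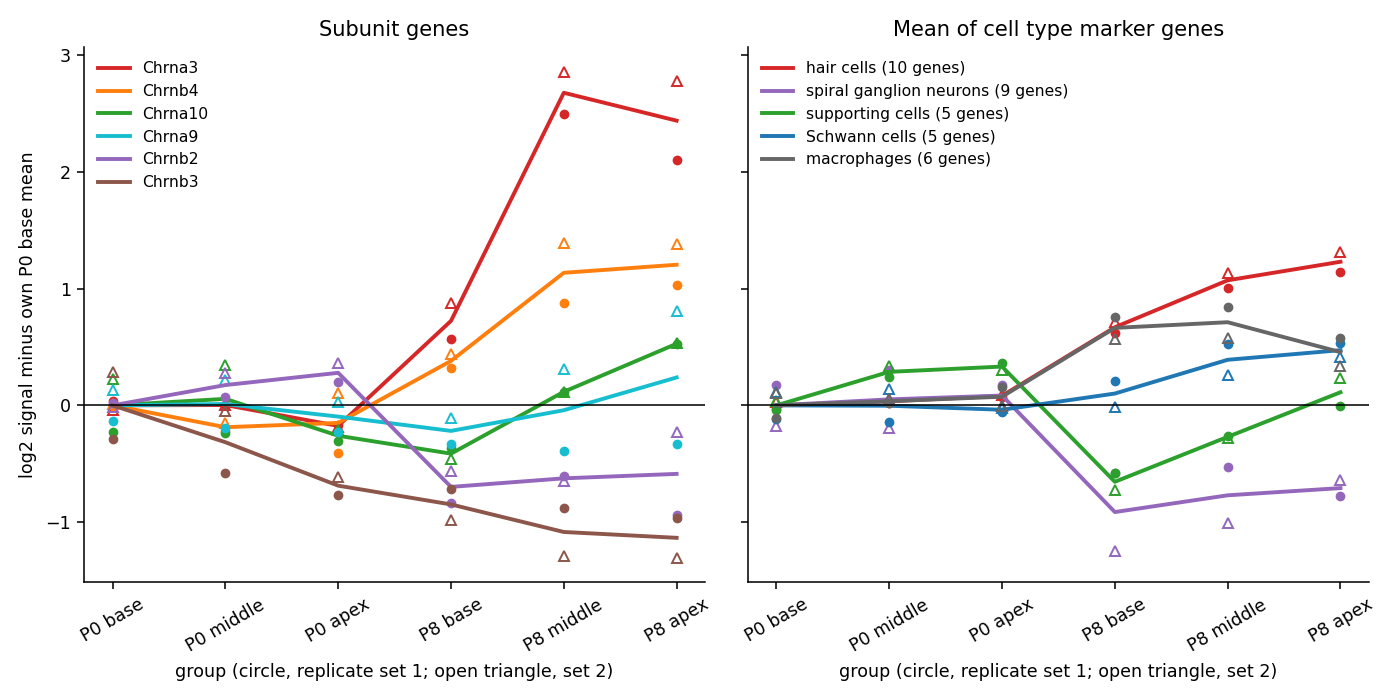
Log2 signal minus the gene's or list's own P0 base mean (y axis) in the 6 groups (x axis), for 6 subunit genes (left) and for the mean of marker genes of 5 cell types (right), with lines through group means, circles for replicate set 1 and open triangles for set 2. At P8 the hair cell mean was 8.14, 8.55 and 8.71 in base, middle and apex. Chrna3, Chrnb4 and the hair cell, Schwann cell and macrophage means were higher at P8 than at P0 in each region. Chrnb2 and the spiral ganglion and supporting cell means were lower. In the base 5 of the 10 hair cell markers lay above 0 for P8 over P0 and 5 below (median 0.05).

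The mean of the 9 spiral ganglion neuron markers was 7.88 to 8.37 on the P0 arrays and 6.82 to 7.54 on the P8 arrays, lower at P8 as Chrnb2 was. With Chrnb2, r over 12 arrays was above 0 for 8 of these 9 genes, with a median of 0.821. It ranged from -0.263 for Slc17a7, a glutamate transporter gene, to 0.960 for Nefm, a neurofilament gene, while Nefh, another neurofilament gene, had 0.128. Within the 6 P0 arrays the median with spiral ganglion markers was 0.215 (-0.822 for Nefh to 0.811 for Nefl), and within the 6 P8 arrays 0.776. For supporting cell markers the median was 0.805 over 12 arrays, 0.832 within P0 and 0.367 within P8. The supporting cell mean was 8.83 in the P8 base, 9.21 in the P8 middle and 9.60 in the P8 apex. At P0 it was 9.48, 9.77 and 9.82. Its order at P8 was that of Chrna10. The P8 means of hair cell, Schwann cell and spiral ganglion markers and of Chrna4, Chrna7, Chrna9, Chrnb2 and Chrnb4 had that order too. Within the 6 P8 arrays 4 of the 5 supporting cell markers had r above 0 with Chrna10, while Gjb2 had -0.859. The macrophage mean was 6.95 to 7.22 at P0 and 7.39 to 7.90 at P8, and the Schwann cell mean was 9.58 in the P8 apex against 9.21 in the P8 base. The 3 autonomic neuron markers tested averaged 6.41 to 7.09 on all arrays. Their r with Chrna3 over 12 arrays was -0.48 to -0.23, with Chrna3 under the level minimum on the P0 arrays. With Chrnb4 their r was -0.35 to -0.12 over 12 arrays, 0.72 to 0.92 within P0 and -0.26 to 0.13 within P8. Dbh, the noradrenaline-synthesizing enzyme of sympathetic neurons, had group means of 5.18 to 5.59, all under the level minimum. What part the share of each cell type in a piece had in these differences was not tested.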

How the data were processed

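RNA from pooled cochlear tissue was hybridized to 12 Affymetrix Mouse Gene 1.0 ST arrays, and the authors estimated expression by RMA. The deposited values are log2 signals, as their range shows. Neither the RMA version nor the number of RMA runs is given in the sources used here. Probe-level data were not used. Of 35556 entries, 21789 carried 1 gene symbol, 1621 several and 12146 none, and only the first kind was used, with the highest mean entry per gene. Genes with a group mean above 6 entered the limma test (version 3.58.1 under R 4.3.3, lmFit and eBayes, 6 group means, 6 residual and 2.78 prior degrees of freedom), without a block, as the study's methods used unpaired tests. The main script was tested on simulated data. Where 2 arrays make a group, an exact permutation test could not go below 0.333.

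Replicate numbers pair the samples: regions of 1 age and number come from 1 pool by the study's methods (the pool block), a number spans both ages (the replicate set block), and deviations from group means correlated at 0.544 to 0.916 over 15 pairs of groups (at least 0.697 within an age). Alternatives used this block, the pool as a block, pool means, other filters, normalizations and tests, and left out each array. Named genes are the 10 members, up to 3 genes per list with the smallest p for the apex over the base at P8, and the 3 genes most like each member. Lypd6b and the single marker genes given with a level or r, Dbh included, were named after their values were seen. Members and lists were chosen with earlier results of these data known. Promoter sequences are from RefSeq GRCm38.p6. Python 3.11.15 and matplotlib 3.10.9 were used for tables and figures.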

Additional observations from a re-analysis of the deposited data

Results flagged for a closer look

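For 3 subunit genes the apex-base difference itself differed between P0 and P8 by a test of that change. It was larger at P8 by 1.89 for Chrna3 (replicate set as a block and pool as a block), by 1.20 for Chrna10 (pool as a block) and by 0.97 for Chrnb4 (pool as a block). In the fit without a block none of the 3 passed by limma (0.53 for Chrna3 after adjustment, the lowest of the 8 subunit genes), and both replicate sets had the same sign for each of the 3. The P0 signals of Chrna3 all lay under the level minimum, so its 1.89 is a change of listed signals and its size as a change of expression is not known. Groups of 2 arrays are too small for a check of single outlying arrays.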

How the results depend on the processing

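Shares of all genes tested are given in brackets. Without a block, 1 of 8 subunit genes passed for the apex over the base at P8 (0.196%). For P8 over P0, 2 passed over the 3 regions (3.2%), in the middle (4.02%) and in the apex (4.53%), and 0 passed elsewhere. With the replicate set as a replicate block the counts were 4 for the apex over the base at P8 (1.58%) and 1 for the middle over the base at P8 (0.117%). They were 3, 4 and 4 for P8 over P0 in the base, middle and apex (10.5%, 11.1% and 12%), and 1 for the change of the apex-base difference (0.178%). With the pool as a replicate block they were 1 for the apex over the base at P0 (1.42%) and 4 at P8 (2.81%). They were 2 for the middle over the base at P8 (0.54%) and 3 for the change (0.926%). On pool means 0 passed for P8 over P0 over the 3 regions (0.0307%). The methods' t-test gave 0 after adjustment for the apex over the base at P8 and for P8 over P0 in the middle and in the apex, and at an unadjusted p 4, 1 and 2 for the apex over the base at P8, the middle over the base at P8 and P8 over P0 in the base. Leaving out 1 array gave 0 for the apex over the base at P8, 1 to 2 over the 3 regions, 1 to 3 in the middle and in the apex and 0 elsewhere. With the block and 1 array left out (chosen after seeing the data) the ranges were 1 to 4 for the apex over the base at P8, 0 to 1 for the middle over the base, 1 to 2 over the 3 regions, 0 to 3, 2 to 4 and 3 to 4 in base, middle and apex, and 0 to 1 for the change. Shares of all genes are not given here for the t-test counts or for the fits without 1 array. Those counts describe the processing and are not read as results about these genes. No filter, a level of 7, the mean of all entries, quantile normalization, median centring and a trend in eBayes kept each count within 1.5 times. Of 7 calls of single genes none reversed, and 86 sign changes occurred among differences that passed in neither fit, 85 of them without 1 array. With 2 arrays per group and 4 pools, the number of arrays limits the precision.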
